A study of Mus musculus with 4 samples.

Results

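The immediate early response genes examined here were 10 genes chosen by name, namely *Fos*, *Fosb*, *Jun*, *Junb*, *Egr1*, *Egr2*, *Ier2*, *Ier3*, *Nr4a1* and *Dusp1*, out of 24346 gene symbols in each file. All 10 were found in all 4 libraries and all 10 passed the filter on low values. In these data the level of *Fos* was lower in mice fed 7-ketocholesterol (7KC) than in mice fed the same diet without it, at 97.4 and 277 against 496 and 546 FPKM, and 9 of the 10 genes had a lower mean log2 level, as did 51.3% of all genes tested. *Ier3* was the exception, with a higher level in both 7KC libraries. No member passed an adjusted p-value of 0.05 in limma, and 9 of the 10 were lowest in 1 of the 4 libraries, 7KC-IMQ replicate 1.

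The libraries were made from the dorsal skin of male C57BL/6 mice that were 8 weeks old when the diet began. Both groups ate a NASH diet, which is rich in fat, cholesterol, sucrose and bile salt and induces steatohepatitis, for 3 weeks, and both then received a 5% imiquimod (IMQ) cream, an agonist of Toll-like receptor signaling that induces psoriasis-like dermatitis, for 1 day. The Cont-IMQ group (2 libraries) ate this diet alone, and the 7KC-IMQ group (2 libraries) ate it with added 7KC, an oxidized derivative of cholesterol. Skin without IMQ and skin of mice on ordinary chow are not part of the comparison, which sets both diets side by side in skin that received IMQ. Whether a library came from 1 mouse is not stated in the labels, and the p-values therefore measure only the spread between these libraries.

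Immediate early genes are switched on within minutes of a stimulus, without the need for newly made proteins, and their messengers are short-lived. Growth factors, cytokines, stress and wounding reach them through MAP kinases, which act on the serum response factor and its ETS partners, and through CREB, which binds the cAMP response element (CRE). In skin they are known for responding quickly to wounding, to inflammation and to handling of the tissue. *Fos*, *Fosb*, *Jun* and *Junb* encode subunits of AP-1, a dimeric transcription factor. *Egr1* and *Egr2* encode zinc-finger transcription factors and *Nr4a1* an orphan nuclear receptor. *Dusp1* encodes a phosphatase that inactivates MAP kinases, and *Ier2* and *Ier3* encode a nuclear protein and a regulator of cell survival.

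For 8 of the 10 genes a promoter window of RefSeq (GRCm38.p6, from 250 bases before to 50 bases after the annotated start) was at hand, all except *Egr1* and *Ier2*. Shown here are the 200 bases before the start for the 4 genes with the largest spread between libraries (*Fos*, *Fosb*, *Dusp1* and *Nr4a1*), for *Egr2* (the third of its 5 annotated windows), which holds a CArG box, and for *Ier3*, the gene that was higher. Each is written 5′ to 3′ on the strand of the gene, and capitals mark the core of the CRE (TGACG, or CGTCA on the opposite strand) and the CArG box, the binding motif of serum response factor.
Fos (chr12:85473690-85473889, plus strand): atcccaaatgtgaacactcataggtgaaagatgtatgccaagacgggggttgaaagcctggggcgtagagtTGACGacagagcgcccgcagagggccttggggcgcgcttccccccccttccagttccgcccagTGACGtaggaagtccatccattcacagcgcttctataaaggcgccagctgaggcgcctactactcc
Fosb (chr7:19310046-19310245, minus strand): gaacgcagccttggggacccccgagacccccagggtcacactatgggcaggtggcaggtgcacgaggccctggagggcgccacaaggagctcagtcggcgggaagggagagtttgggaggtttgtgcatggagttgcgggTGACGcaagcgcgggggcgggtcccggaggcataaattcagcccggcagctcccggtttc
Dusp1 (chr17:26508473-26508672, minus strand): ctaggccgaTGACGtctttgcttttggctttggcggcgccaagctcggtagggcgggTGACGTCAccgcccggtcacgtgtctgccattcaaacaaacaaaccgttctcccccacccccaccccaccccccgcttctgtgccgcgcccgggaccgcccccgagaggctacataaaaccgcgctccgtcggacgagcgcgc
Nr4a1 (chr15:101266646-101266845, plus strand): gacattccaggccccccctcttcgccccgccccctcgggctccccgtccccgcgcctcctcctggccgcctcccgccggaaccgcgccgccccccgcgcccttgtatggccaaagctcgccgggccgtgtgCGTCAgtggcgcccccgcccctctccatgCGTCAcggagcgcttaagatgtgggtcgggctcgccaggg
Egr2 (chr10:67537669-67537868, plus strand): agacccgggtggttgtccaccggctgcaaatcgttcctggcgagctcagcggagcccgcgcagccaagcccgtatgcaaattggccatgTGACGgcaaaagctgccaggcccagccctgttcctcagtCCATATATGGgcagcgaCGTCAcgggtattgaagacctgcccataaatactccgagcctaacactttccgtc
Ier3 (chr17:35821513-35821712, plus strand): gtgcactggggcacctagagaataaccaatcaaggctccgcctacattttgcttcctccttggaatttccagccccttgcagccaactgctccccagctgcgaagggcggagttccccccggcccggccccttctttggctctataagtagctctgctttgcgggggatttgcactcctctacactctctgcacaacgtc
The CRE core occurred in a window of 6 of the 8 genes (*Fos*, *Fosb*, *Junb*, *Egr2*, *Nr4a1* and *Dusp1*), and it is found in 20.8% of the 32817 promoter windows of the same length on either strand. The shares over all promoters are per window, whereas *Egr2* was counted if any of its 5 windows held a motif. *Dusp1* also held the full CRE (TGACGTCA, 1.79% of all windows), which holds the core on both strands, overlapping. Within these windows the CArG box was found only in *Egr2* among the 8 genes, against 1.63% of all windows. Sequence farther upstream was not searched. The TATA box (TATAAA, 13.6% of all windows) stood 33 to 28 bases before the start of *Fos* and on bases 1 to 6 from the start of *Junb*. The letters GCGGGGGCG, bound by EGR factors, occurred in *Fosb* and *Nr4a1* (2.91% of all windows), and the AP-1 site TGACTCA in none of the 8 genes (5.2% of all windows). Neither *Jun* nor *Ier3* held any of these 6 motifs in its window. These matches of letters are a description, and binding was not measured.

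The deposited values were FPKM, in which fragments are corrected for exon length and for library size, so levels of different genes can be compared with each other per length. Depth, estimated from the low values, lay between 14980000 and 16180000 mapped reads. Keratinocyte markers were high in every library, with *Krt5* between 2544 and 3062 FPKM and *Krt14* between 4132 and 5700 FPKM. Skeletal muscle markers were high as well, with *Acta1* between 2106 and 3133 FPKM. In bulk skin, fewer cells of a type and less messenger per cell cannot be told apart.

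In the Cont-IMQ group the mean level was highest for *Fos* (521 ± 35.5 FPKM, SD, n = 2) and *Junb* (500 ± 11.0 FPKM), and these did not differ beyond their spread. *Egr1* (319 ± 25.6 FPKM), *Dusp1* (276 ± 3.79 FPKM) and *Ier2* (154 ± 4.69 FPKM) followed without overlap between neighbours. *Ier3* (131 ± 13.8 FPKM), *Nr4a1* (111 ± 85.1 FPKM) and *Jun* (111 ± 10.6 FPKM) overlapped each other in order, and *Fosb* (57.8 ± 39.6 FPKM) and *Egr2* (45.6 ± 5.45 FPKM) were lowest. In the 7KC-IMQ group *Fos* came after *Junb*, *Egr1* and *Ier3*. There *Junb* was first with 491 ± 113 FPKM (SD, n = 2), ahead of *Egr1* (250 ± 64.1 FPKM) without overlap, and each of the next 8 neighbours in the order overlapped. Of the 10 genes, 7 and 8 were among the 1000 most abundant genes of Cont-IMQ replicates 1 and 2, and 6 and 8 among those of 7KC-IMQ replicates 1 and 2. Each library had between 16958 and 17161 genes above 0.

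**Figure D1:**
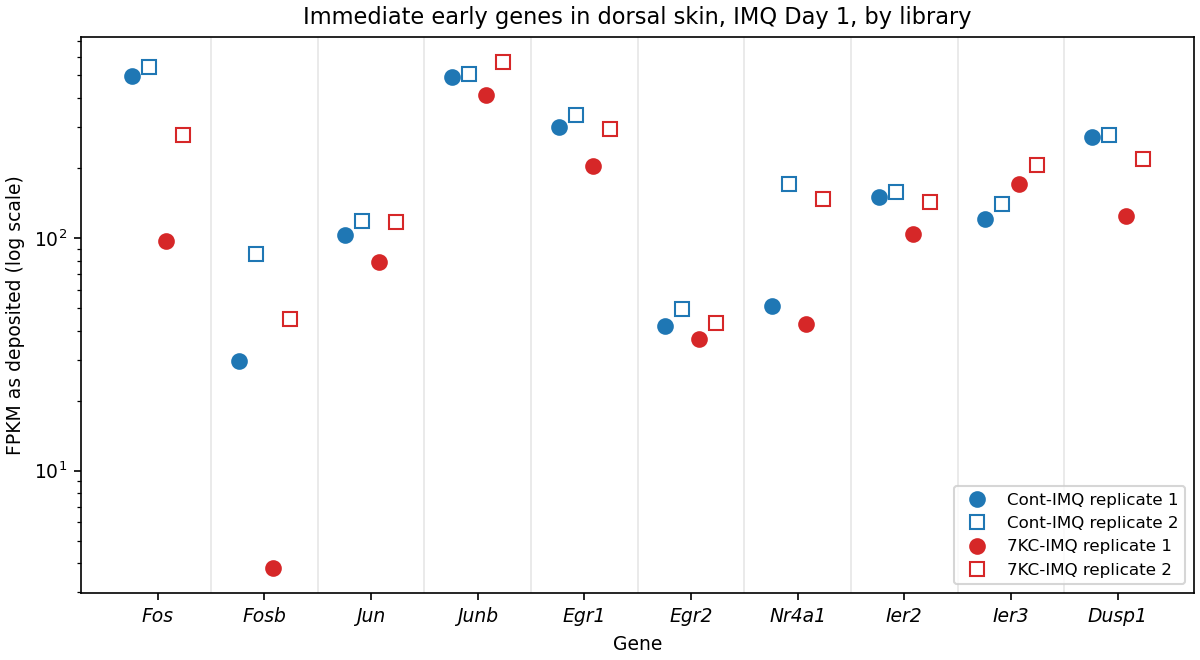
FPKM of the 10 immediate early genes in each of the 4 libraries, on a log axis, with the Cont-IMQ libraries in blue and the 7KC-IMQ libraries in red (filled circles, replicate 1, and open squares, replicate 2). 7KC-IMQ replicate 1 is the lowest point of 9 genes, and *Ier3* is the only gene with both red points above both blue points.

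Among the AP-1 subunits, *Fos* (ENSMUSG00000021250.13, chromosome 12 of GRCm38 from 85473890 to 85477273) was at 496 and 546 FPKM with Cont-IMQ (replicates 1 and 2) and at 97.4 and 277 FPKM with 7KC-IMQ. Both 7KC-IMQ libraries lay below both Cont-IMQ libraries, at 18.7% and 53.1% of the Cont-IMQ mean. The ratio of the mean FPKM values was 2.78-fold lower. The difference between the means of log2(FPKM + 1), a separate quantity that is the log2 fold change given from here on, was -1.66 ± 0.50 (SE, limma adjusted p = 0.360). The value depended on the 7KC-IMQ libraries, being -0.91 without replicate 1 and -2.41 without replicate 2. The smallest p-value that an exact two-sided permutation test of 2 libraries against 2 can give is 0.333.

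*Fosb* (chromosome 7, 19302696 to 19310051), a close relative of *Fos*, was at 29.7 and 85.8 FPKM with Cont-IMQ and at 3.83 and 44.9 FPKM with 7KC-IMQ. The groups overlapped, because the second 7KC-IMQ library was above the first Cont-IMQ library. The log2 fold change was -1.79 ± 1.18 (SE, limma adjusted p = 0.570), and it was -0.17 without 7KC-IMQ replicate 1, -3.42 without 7KC-IMQ replicate 2, -2.54 without Cont-IMQ replicate 1 and -1.05 without Cont-IMQ replicate 2. The lowest value still rests on an estimated 55 reads or more, counted with the shortest coding transcript, so it is well above a single read.

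*Jun* (chromosome 4, 95049034 to 95052222) had 103 and 118 FPKM against 78.6 and 117 FPKM, and *Junb* (chromosome 8, 84974484 to 84978718) had 492 and 508 FPKM against 411 and 571 FPKM. In both genes the groups overlapped, and 7KC-IMQ replicate 1 was the lowest library. Their log2 fold changes were -0.20 ± 0.21 (SE, limma adjusted p = 0.711) and -0.044 ± 0.18 (limma adjusted p = 0.938), and both changed sign without 7KC-IMQ replicate 1, to 0.079 and 0.19. Part of the sequence of *Jun* (5.07% of its 75-base windows) is shared with *Junos* and part of that of *Junb* (4.74%) with *Prdx2*, as these genes overlap on the genome, and although the library kit keeps the strand, whether counting used it is not stated.

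A ratio of genes within a library does not depend on the scaling of that library. The ratio of *Fos* to *Junb* FPKM was 1.01 and 1.08 in the Cont-IMQ libraries, against 0.237 and 0.485 in the 7KC-IMQ libraries. The ratio of *Fos* to *Egr1* was 1.65 and 1.62 against 0.476 and 0.939. Both ratios were lower in both 7KC-IMQ libraries without overlap. The ratio of *Junb* to *Jun* stayed between 4.29 and 5.23 in the 4 libraries. The ratio of *Fos* to *Fosb* went with the replicates rather than the diets, at 16.7 and 6.37 in the Cont-IMQ group and 25.4 and 6.18 in the 7KC-IMQ group.

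Of the EGR factors, *Egr1* (chromosome 18, 34859823 to 34864984) was at 301 and 337 FPKM with Cont-IMQ and at 204 and 295 FPKM with 7KC-IMQ. The groups did not overlap, but the gap between the nearest libraries was small beside the spread of the 7KC-IMQ group. The log2 fold change was -0.37 ± 0.20 (SE, limma adjusted p = 0.495), and it was -0.11 without 7KC-IMQ replicate 1 and -0.64 without 7KC-IMQ replicate 2. *Egr2* (chromosome 10, 67535475 to 67542188) had 41.7 and 49.5 FPKM against 36.7 and 43.3 FPKM, with overlap and a log2 fold change of -0.18 ± 0.13 (SE, limma adjusted p = 0.592). Without Cont-IMQ replicate 2 it was -0.064 and without 7KC-IMQ replicate 1 it was -0.067, against -0.30 without either of the other libraries. The ratio of *Egr1* to *Egr2* lay between 6.81 and 7.21 in 3 libraries and was 5.57 in 7KC-IMQ replicate 1. *Nr4a1* (chromosome 15, 101254269 to 101274795) was at 50.9 and 171 FPKM with Cont-IMQ and at 42.7 and 147 FPKM with 7KC-IMQ. Replicate 2 was 3.36-fold above replicate 1 in one group and 3.45-fold in the other, a wider spread than between the diets, and the log2 fold change of -0.23 ± 0.82 (SE, limma adjusted p = 0.929) became 0.63 without Cont-IMQ replicate 2 and 0.65 without 7KC-IMQ replicate 1.

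*Dusp1* (chromosome 17, 26505590 to 26562128), the feedback phosphatase, was at 273 and 279 FPKM with Cont-IMQ and at 124 and 218 FPKM with 7KC-IMQ. The Cont-IMQ libraries lay close together, and both 7KC-IMQ libraries were lower, at 45.0% and 79.0% of the Cont-IMQ mean. The log2 fold change was -0.74 ± 0.28 (SE, limma adjusted p = 0.379), and it was -0.34 without 7KC-IMQ replicate 1 and -1.15 without 7KC-IMQ replicate 2. An annotated exon of *Dusp1* overlaps *Ergic1*, although no 75-base window was shared. *Ier2* (chromosome 8, 84661331 to 84662852) had 151 and 157 FPKM against 104 and 143 FPKM, lower without overlap, with a log2 fold change of -0.34 ± 0.17 (SE, limma adjusted p = 0.478) that was -0.10 without 7KC-IMQ replicate 1 and -0.57 without 7KC-IMQ replicate 2.

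*Ier3* (ENSMUSG00000003541.6, chromosome 17, 35821684 to 35822923) differed in the other direction, at 121 and 140 FPKM with Cont-IMQ and at 171 and 207 FPKM with 7KC-IMQ. Both 7KC-IMQ libraries were higher, by 1.44-fold in the mean, with a log2 fold change of 0.52 ± 0.13 (SE, limma adjusted p = 0.356), which stayed between 0.39 and 0.66 when any 1 library was dropped. The ratio of *Ier2* to *Ier3* was 1.25 and 1.12 in the Cont-IMQ libraries and 0.608 and 0.693 in the 7KC-IMQ libraries.

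**Figure D2:**
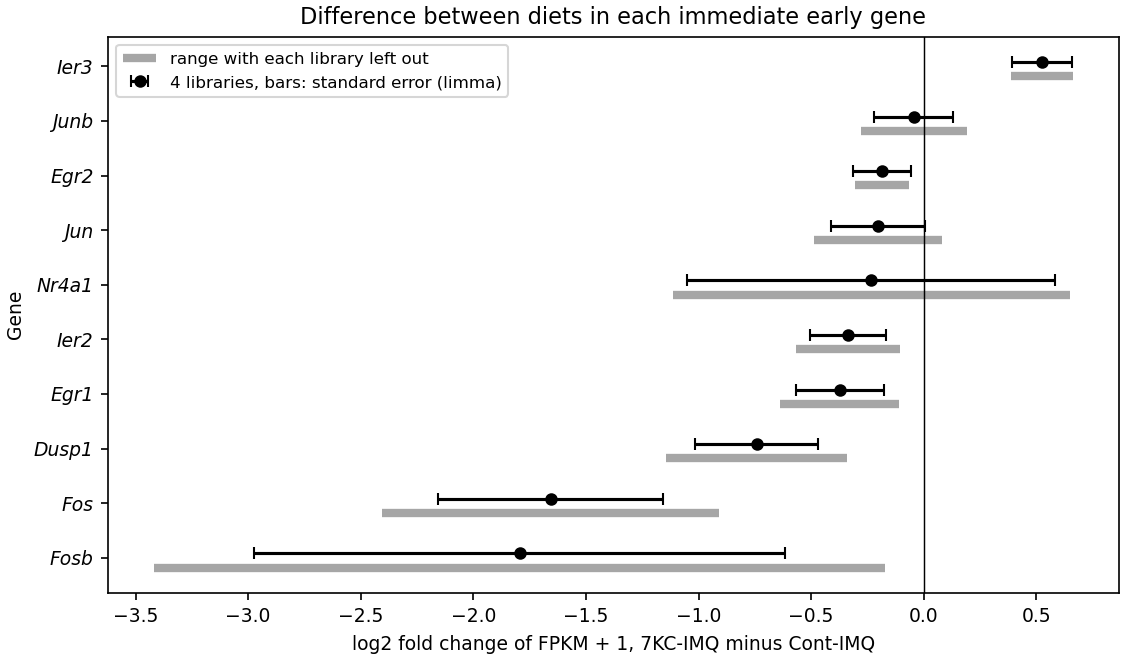
Log2 fold change of FPKM + 1 between the 7KC-IMQ and Cont-IMQ groups for each gene, with points and bars for the limma estimate and its standard error and grey bars for the range when any 1 library was dropped. The grey bars of *Jun*, *Junb* and *Nr4a1* cross 0, whereas that of *Ier3* lies between 0.39 and 0.66 and that of *Fos* between -2.41 and -0.91.

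Counted together, 3 members had an unadjusted limma p-value below 0.05, *Fos* and *Dusp1* lower and *Ier3* higher, and 0 of 10 passed the adjusted threshold, in this fit and in each of the 12 alternatives. Over all 15896 genes tested, 13% were past the unadjusted threshold, 5.47% lower and 7.5% higher, and 0.00629% passed the adjusted one. With each library rescaled to the same FPKM sum, the split was 4 lower and 1 higher in place of 2 and 1, and over all genes 7.73% were lower and 4.01% higher. The groups did not overlap in 5 members, 4 lower (*Fos*, *Egr1*, *Ier2* and *Dusp1*) and 1 higher. Of all genes tested, 46.8% did not overlap, 22.9% being lower and 23.9% higher, so the share of members without overlap in either direction was near the background. The median log2 fold change was -0.28 over the members and -0.0056 over all genes. The size of the differences depended on the 7KC-IMQ library that was kept. *Fos* was at -0.91 without 7KC-IMQ replicate 1 and at -2.41 without 7KC-IMQ replicate 2, and *Dusp1* at -0.34 and -1.15. *Ier3*, the member that was higher, was at 0.66 and 0.39. The fit without 7KC-IMQ replicate 2 rests on replicate 1 alone for that group, the lowest library in 9 of 10 members.

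The libraries differed within the groups as well. 7KC-IMQ replicate 1 was the lowest of the 4 libraries in 9 of 10 members, all except *Ier3*, an arrangement found in 19.4% of all genes tested. In all 10 members replicate 2 was above replicate 1 in both groups, found in 25.4% of all genes tested. The factor between replicates ran from 1.02 in *Dusp1* to 3.36 in *Nr4a1* in the Cont-IMQ group, and from 1.18 in *Egr2* to 11.7 in *Fosb* in the 7KC-IMQ group. The labels do not say that a replicate number marks a shared day, batch or litter.

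**Figure D3:**
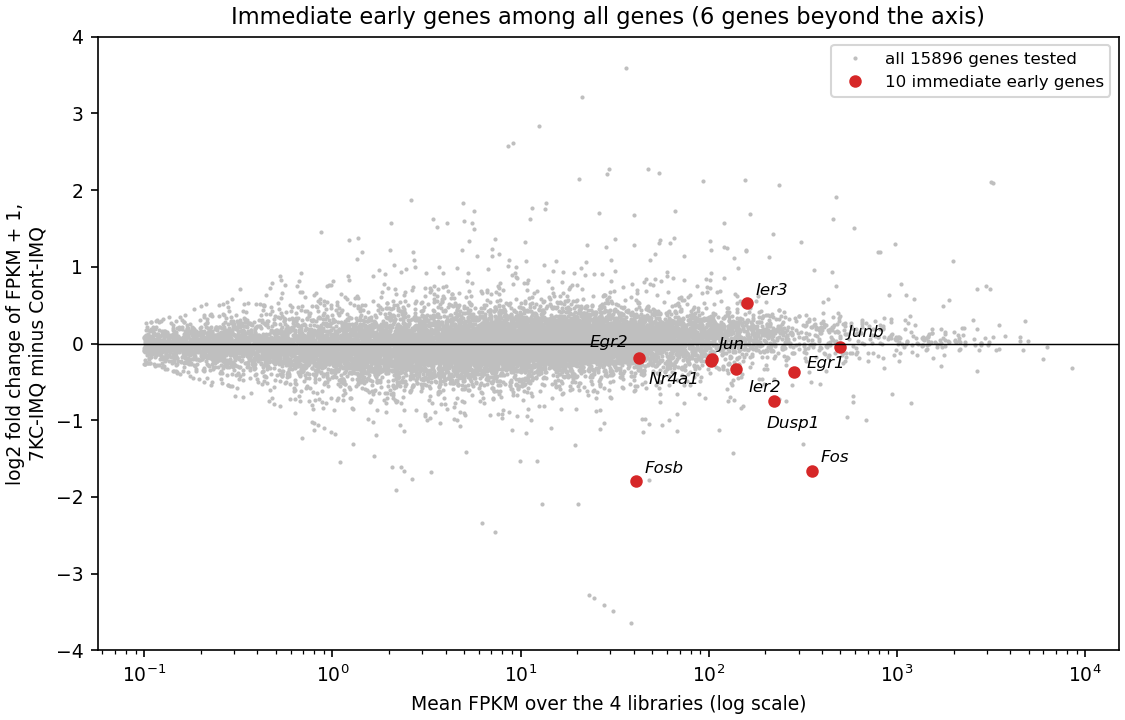
Log2 fold change of FPKM + 1 between the groups against the mean FPKM over the 4 libraries (log axis) for all 15896 genes tested (grey) and the 10 immediate early genes (red), with 6 genes beyond the axis. *Fos* (-1.66) and *Fosb* (-1.79) are the lowest members and *Ier3* (0.52) is the only one above 0.

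Relatives of these genes and the kinases and factors above them were compared from lists. Of the other AP-1 genes with the ATF and small Maf genes (14 genes), 0 passed either threshold in limma, and 2 were lower and 4 higher without overlap, against 22.9% and 23.9% of all genes. *Atf3*, a stress-induced member, was at 54.1 and 135 FPKM with Cont-IMQ and at 23.9 and 60.3 FPKM with 7KC-IMQ, which overlapped (log2 fold change -1.15 ± 0.61 SE, limma adjusted p = 0.499). *Fosl2*, another FOS relative, was higher without overlap, with 37.4 and 48.7 against 49.1 and 57.4 FPKM, and *Jund* had 96.4 and 114 against 80.7 and 116 FPKM. *Fosl1* had 2.51 and 9.68 against 3.69 and 9.94 FPKM. *Batf2* was higher without overlap, with 3.41 and 4.85 against 7.47 and 5.50 FPKM, and had the highest log2 fold change of this list, 0.55 (limma adjusted p = 0.383). *Atf7* was lower without overlap, with 13.3 and 13.3 against 12.8 and 11.2 FPKM.

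Of 6 genes of the other EGR and NR4A factors and the EGR co-repressors, 0 passed either threshold and 0 were free of overlap. Over all genes tested, 13% were past the unadjusted threshold, 0.00629% passed the adjusted one and 46.8% were free of overlap. *Egr3* had 57.9 and 79.6 FPKM against 61.6 and 87.8 FPKM, and *Nr4a3* had 2.85 and 5.14 FPKM against 3.54 and 5.42 FPKM. *Nr4a2* had 1.19 and 2.45 FPKM against 1.10 and 2.43 FPKM. In these 3 genes, as in the members, replicate 2 was the higher library of each group, found in 25.4% of all genes tested. The co-repressor genes differed from that arrangement, as *Nab1* had 22.5 and 20.4 FPKM against 20.6 and 22.6 FPKM, and *Nab2* had 20.7 and 27.5 FPKM against 25.6 and 20.7 FPKM.

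Of 43 other rapid-response genes tested, 4 were lower and 5 higher at the unadjusted threshold, and 5 and 10 without overlap, with a median log2 fold change of 0.059. Over all genes, 5.47% were lower and 7.5% higher at that threshold, and 22.9% and 23.9% without overlap. Those lower were led by *Zfp36*, which encodes a protein that destabilizes messengers of cytokines, with 269 and 244 against 161 and 215 FPKM (log2 fold change -0.46 ± 0.16 SE, limma adjusted p = 0.372), and by the kinase gene *Sgk1*, with 62.7 and 78.0 against 49.0 and 55.3 FPKM. Those higher were led by *Ier5l*, with 6.78 and 5.87 against 10.2 and 14.8 FPKM, and by *Plaur*, the urokinase receptor, with 10.6 and 9.17 against 19.4 and 16.9 FPKM (log2 fold change 0.82 ± 0.12 SE, limma adjusted p = 0.343). *Phlda1* was higher without overlap, with 28.9 and 32.3 against 37.6 and 66.8 FPKM. *Arc* had 29.3 and 35.8 against 16.4 and 38.3 FPKM, with overlap.

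Of the 9 other MAP kinase phosphatases, 1 was lower at the unadjusted threshold, against 5.47% of all genes tested. This gene was *Dusp10*, with 3.49 and 3.21 against 2.49 and 1.55 FPKM (log2 fold change -0.54). *Dusp7* had 82.7 and 104 against 97.2 and 125 FPKM, with overlap. The groups also overlapped in *Dusp2*, *Dusp4*, *Dusp5* and *Dusp8*, whose log2 fold changes lay between -0.26 and 0.23. At the unadjusted threshold 5.47% of all genes tested were lower and 7.5% higher. Of 24 kinases and transcription factors upstream, 0 were lower and 2 higher at that threshold. These were the MAP kinase kinase *Map2k1*, with 36.7 and 31.4 against 46.7 and 53.6 FPKM (log2 fold change 0.55 ± 0.12 SE, limma adjusted p = 0.354), and *Rps6ka4*, with 50.4 and 39.5 against 55.4 and 62.6 FPKM. *Map2k2* was higher without overlap, with 57.1 and 51.0 against 58.5 and 63.2 FPKM. The *Mkl2* gene, which encodes a coactivator of serum response factor, was lower without overlap, with 4.39 and 4.76 against 4.20 and 3.16 FPKM, as was the kinase gene *Mapk9*, with 7.87 and 7.19 against 6.51 and 6.31 FPKM. *Elk1*, an ETS factor, had 7.09 and 7.15 against 7.21 and 5.76 FPKM, with overlap.

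**Figure D4:**
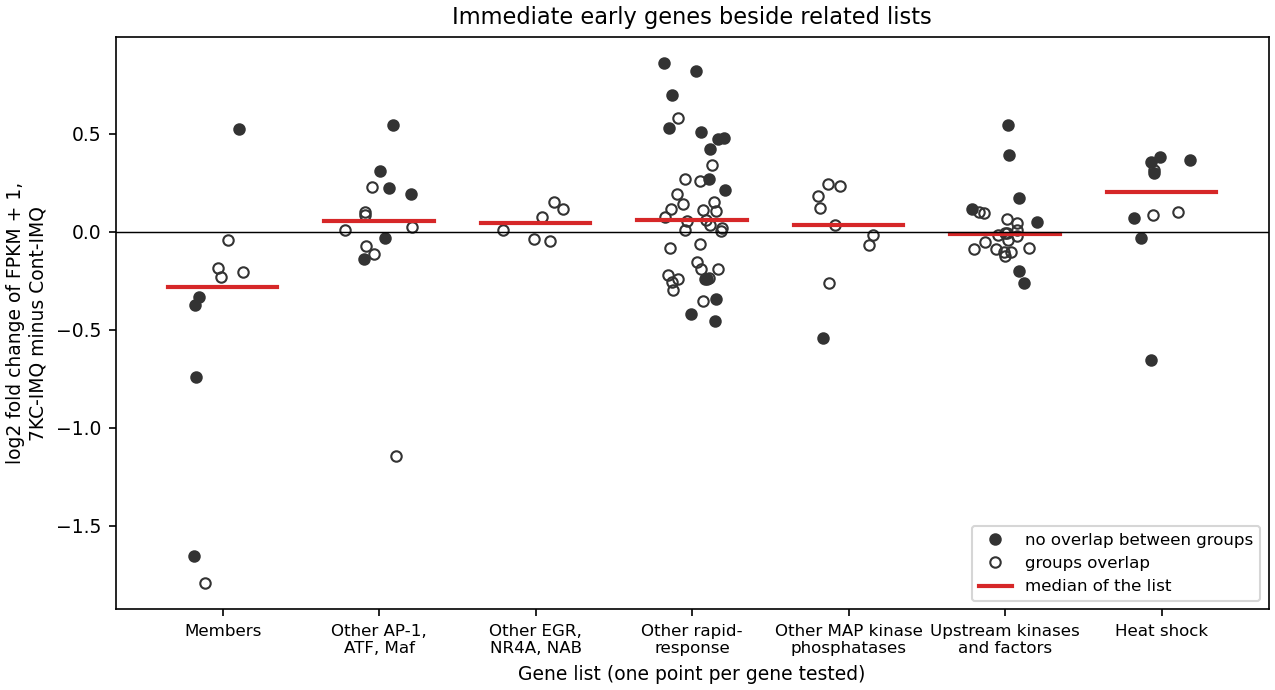
Log2 fold change of FPKM + 1 between the groups for each gene tested, by list, with filled points for genes without overlap between the groups, open points for genes with overlap and a red line for the median. The median of the members is -0.28, and those of the related lists lie between -0.012 and 0.20.

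Heat shock genes, which also respond to stress and handling, were 2 lower and 5 higher without overlap among 10 genes, and 1 lower and 2 higher at the unadjusted threshold. Over all genes tested, 22.9% were lower and 23.9% higher without overlap, and 5.47% and 7.5% at that threshold. *Hspb1* was lower, with 974 and 1328 against 740 and 703 FPKM, and *Hspd1*, a mitochondrial chaperonin, was higher, with 127 and 142 against 164 and 186 FPKM. *Hspe1*, its co-chaperonin, was higher with 155 and 188 against 211 and 226 FPKM, and *Hspa8* with 944 and 1117 against 1222 and 1429 FPKM. *Hspa1a*, the stress-inducible HSP70 gene, was lower without overlap, yet lay between 17.4 and 18.2 FPKM in the 4 libraries. 7KC-IMQ replicate 1 was the lowest library in 2 of the 10 heat shock genes. It was the lowest in 20 of the 43 other rapid-response genes tested, against 19.4% of all genes tested. In the other AP-1, ATF and small Maf genes it was the lowest in 3 of 14. The count was 1 of 6 in the EGR and NR4A list, 2 of 9 in the phosphatases and 6 of 24 in the upstream genes.

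Markers of the cell types in skin were measured beside the members, and their part in the differences was not tested. The counts without overlap below stand beside 22.9% lower and 23.9% higher over all genes tested. Endothelial markers had a summed level of 55.5 and 68.5 FPKM with Cont-IMQ and 52.2 and 48.1 FPKM with 7KC-IMQ, with 3 of 5 lower without overlap. Macrophage markers summed to 342 and 380 against 310 and 304 FPKM, with 3 of 5 lower, and T cell markers to 16.9 and 13.8 against 12.5 and 9.65 FPKM, with 2 of 3 lower. Neutrophil markers were higher without overlap in 4 of 4, with sums of 18.4 and 21.2 against 28.5 and 31.0 FPKM. Skeletal muscle markers summed to 7176 and 7067 against 5852 and 6992 FPKM, with 2 of 8 lower and 2 of 8 higher without overlap. Keratinocyte markers summed to 21883 and 14574 against 17036 and 18931 FPKM, and fibroblast markers to 2249 and 1389 against 2208 and 1877 FPKM. Of each of these 2 lists, 0 of 5 were lower and 1 of 5 higher without overlap. Smooth muscle markers summed to 57.6 and 81.5 against 73.7 and 62.1 FPKM, with 0 of 5 free of overlap. Adipocyte markers summed to 973 and 1412 against 1394 and 951 FPKM, with 0 of 5 lower and 2 of 5 higher without overlap. Growing hair follicle markers summed to 51.6 and 635 against 187 and 157 FPKM, so Cont-IMQ replicate 2 stood apart, and 0 of 7 were free of overlap. Sebaceous gland markers summed to 425 and 323 against 492 and 486 FPKM, with 2 of 5 lower and 3 of 5 higher without overlap. Red blood cell markers summed to 27.0 and 6.79 against 6.74 and 25.6 FPKM, with 1 of 3 tested lower without overlap. None of the markers found in the files was listed at 0 in any library, but some red blood cell markers were close to it. *Hba-a2* was at 0.030 FPKM in every library and was not tested. *Hbb-bs* was at 8.32 FPKM in Cont-IMQ replicate 1 and at 0.004 FPKM in each of the other libraries. The red blood cell sums therefore rested mainly on *Hba-a1*, with 18.2 and 6.60 against 6.46 and 25.3 FPKM.

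The genes whose log2(FPKM + 1) values over the 4 libraries lay nearest to those of *Fos*, after centring each gene, were sought among 13100 genes averaging 1 FPKM or more. Among the nearest were *Ankrd2* (distance 0.590), *Scgb1a1* (0.680), *Csrp3* (0.759) and *Sap25* (0.975). *Ankrd2* was at 202 and 188 FPKM with Cont-IMQ and at 54.6 and 93.5 FPKM with 7KC-IMQ, and *Csrp3* had 411 and 491 against 149 and 220 FPKM, lower without overlap in both. Nearest to the mean of the 10 members were *1600010M07Rik* (distance 0.163), *Sirpb1a* (0.176), *Hspb3* (0.187), *Arc* (0.229) and *Mettl21b* (0.234). With 4 libraries and this many genes, the distances are given only as a description.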

How the data were processed

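RNA of dorsal skin was sequenced in 4 libraries. Reads of 75 bases from one end were aligned by the authors to mm10 (TopHat, Bowtie2, SAMtools), who computed FPKM per gene with Cufflinks, and deposited one FPKM file per library. The submitters' processing notes name TopHat2 2.1.1, Bowtie2 2.2.8, SAMtools 0.1.18 and Cuffdiff 2.2.1, and the versions in the study's methods differ. The annotation and the handling of reads with several matches are not given in the sources used here.

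Genes averaging 0.1 FPKM or more (15896) were compared on the log2(FPKM + 1) scale by limma 3.58.1 (R 4.3.3) with a variance trend and Benjamini-Hochberg adjustment over all of them, without a replicate block. On this scale the change of low genes is understated. The members and the lists were chosen with earlier results of these data known, so no test was made over a list. Named were all members and, of each related list, up to 3 rises and 3 falls among genes averaging 1 FPKM or more, as well as the 5 nearest genes in pattern, of which 1 is not reported here. The test was checked on simulated data with independent genes and the same spread in both groups. That check does not show that these libraries meet this setting.

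Depth was estimated as the number of reads that brings low values of single-transcript genes (GENCODE M21, GRCm38) nearest to whole reads, with the transcript shortened by 200 bases. Between 70.3% and 75.0% of 375 to 388 genes were within 0.1 of a whole read, against 20% by chance. Of the marker genes, *Hbb-bt*, *Ly6g*, *Trac* and *Trdc* had no row. Alternatives were a pseudocount of 0.1, 2 other filters, 3 other scalings, no variance trend, a replicate block and leaving out each library.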

Additional observations from a re-analysis of the deposited data

How the results depend on the processing

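Of the 10 members, 7 kept their direction in all 12 alternatives, and 0 passed the adjusted threshold in any of them (smallest adjusted p = 0.322, limma). Sign changes came with a library left out. Without 7KC-IMQ replicate 1, *Jun* was at 0.079, *Junb* at 0.19 and *Nr4a1* at 0.65, and without Cont-IMQ replicate 2 *Nr4a1* was at 0.63. With each library left out in turn, *Jun* ran from -0.49 to 0.079, *Junb* from -0.28 to 0.19 and *Nr4a1* from -1.12 to 0.65. The number of members lower at an unadjusted p-value under 0.05 was 2 (5.47% of all genes), and it was 1 with no filter (5.09%), 1 with no variance trend (5.62%), 4 with the same FPKM sum in each library (7.73%) and between 0 and 6 with a library left out (1.77% to 7.18%). The log2 fold change of *Ier3*, the member that was higher, stayed between 0.39 and 0.66 with a library left out. With a library left out, the number lower without overlap was between 4 and 9 and the number higher without overlap between 1 and 2. In these fits 1 group has a single library, which is assumed to vary like the other group. With 1 library against 2, groups are free of overlap more readily, and the share of all genes without overlap is not given for these fits. Their overlap counts therefore have no background and cannot be set beside the counts with all libraries. With the replicate number as a block, 5 members (*Fos*, *Fosb*, *Egr1*, *Nr4a1* and *Dusp1*) and 4.88% of all genes were lower at the unadjusted threshold, and no member passed the adjusted one (smallest adjusted p = 0.400). The labels do not say what same-numbered libraries share beyond the number. Their deviations from the group means correlated by 0.0651 over the 15896 genes (Pearson), so no pairing was taken as given, although replicate 2 was above replicate 1 in both groups in all 10 members. Counts of the related lists moved by over 1.5 times, or to or from 0, in 35 of 144 recalculations. The causes were not tested. With 2 libraries per group the exact test cannot go below 0.333, and the lowest member value, that of *Fosb* in 7KC-IMQ replicate 1, rests on an estimated 55 reads or more.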
